A study of Mus musculus with 8 samples.

Results

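The RNA of 10 genes of glucose uptake and glycolysis, *Slc2a1*, *Hk2*, *Pfkl*, *Aldoa*, *Tpi1*, *Pgk1*, *Pgam1*, *Eno1*, *Pkm* and *Ldha*, was followed through early B lymphopoiesis, 10 of the 27179 Entrez Gene identifiers in the count table. The genes were listed by name and each symbol matched 1 identifier, so the rule used no measured value, although earlier results of these data were known when the list was drawn up. The 3 stages pre-proB, proB and preB were sorted from bone marrow of young adult *Ergfl/fl* mice, whereas *Rag1CreT/+;Ergdelta/delta* mice, called *Erg*-deficient here, gave pre-proB cells alone, and RNA-seq was run on 2 libraries in each of the 4 groups. *Ergfl/fl* mice carry loxP-flanked *Erg* alleles that are not deleted, since they have no *Rag1Cre* allele, whereas in *Rag1CreT/+;Ergdelta/delta* mice Cre expressed from *Rag1* deletes both *Erg* alleles from the common lymphoid progenitor on. Besides *Erg*, the genotypes therefore also differ in the presence of Cre. Cells were sorted from 2 mice of each genotype, and the sources used here do not say which mouse gave which library.

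Glycolysis splits glucose into pyruvate and yields ATP without oxygen, together with intermediates for nucleotide, amino acid and lipid synthesis. Glucose enters through transporters such as Glut1 (*Slc2a1*), is phosphorylated by hexokinases and phosphofructokinase in the ATP-consuming upper steps, is cut into triose phosphates by aldolase, and passes through the ATP-producing lower steps to pyruvate, which lactate dehydrogenase can turn into lactate. Lymphocytes that divide rapidly are known for a high glycolytic rate, and MYC and the hypoxia-inducible factor HIF-1 are textbook activators of this gene set. In the bone marrow, proB cells proliferate under interleukin-7, and preB cells pass through a burst of division before they become small resting cells.

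Because HIF-1 recognises a core that includes ACGTG, and MYC the E-box CACGTG, which contains the same letters, the 250 bases before each annotated start of the 10 genes were searched for both motifs on both strands. RefSeq (GRCm38.p6) held 16 such windows for the 10 genes. The shorter motif, read on either strand and counted also within the longer one, was present in a window of 7 of the 10 genes, against 18.5% of the 27025 genes with a RefSeq window. CACGTG was present in 1 of the 10, *Ldha*, against 6.86% of all genes. These shares were not matched for GC content or for the number of windows per gene (16 windows for the 10 genes, 32851 for all 27025). *Pfkl*, *Tpi1* and *Eno1*, which were called higher in proB than in pre-proB cells below, had no copy of ACGTG in any window. *Slc2a1*, which was not called, had 1. Of the HIF-1 core only ACGTG was searched, so a window without it may still hold another form of the core. The upstream windows with at least 2 copies of ACGTG are shown 5′ to 3′ on the strand of the gene. Both motifs are in capitals, as CACGT where ACGTG lies on the other strand. A match of letters is a description and not a binding site.
Ldha, chr7:46845554-46845803, plus strand: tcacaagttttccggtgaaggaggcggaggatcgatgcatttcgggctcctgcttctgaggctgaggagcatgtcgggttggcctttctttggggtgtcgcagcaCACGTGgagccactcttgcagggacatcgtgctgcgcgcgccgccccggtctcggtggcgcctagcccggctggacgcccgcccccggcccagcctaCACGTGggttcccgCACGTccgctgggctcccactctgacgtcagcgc
Pgk1, chrX:106186850-106187099, plus strand: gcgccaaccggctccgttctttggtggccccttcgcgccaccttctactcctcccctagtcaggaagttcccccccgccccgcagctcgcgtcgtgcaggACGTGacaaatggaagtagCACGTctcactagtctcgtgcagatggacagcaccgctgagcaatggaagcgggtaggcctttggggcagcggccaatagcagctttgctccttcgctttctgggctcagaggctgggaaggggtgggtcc
Hk2, chr6:82774455-82774704, minus strand: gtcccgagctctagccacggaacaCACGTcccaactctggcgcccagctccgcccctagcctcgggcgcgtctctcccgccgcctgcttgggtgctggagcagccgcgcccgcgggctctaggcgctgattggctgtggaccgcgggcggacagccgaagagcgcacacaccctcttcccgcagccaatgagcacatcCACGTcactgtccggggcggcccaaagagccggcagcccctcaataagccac
The *Ldha* window holds 2 copies of CACGTG and 1 further copy of the shorter motif. Those of *Pgk1* and *Hk2* hold 2 copies of ACGTG each and no CACGTG.

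Library totals ranged from 15565381 to 18457632 counts, and no pair of replicates was a repeat of one library, since the chi-square of their counts divided by its degrees of freedom lay between 3.82 and 8.29. Levels are given as CPM, counts scaled to a common library size with TMM factors, and levels of different genes are compared only as FPKM, which divide CPM by the exon length in kilobases. *Erg* itself was at 69.1 and 25.3 CPM in *Ergfl/fl* pre-proB and at 2.50 and 2.58 in *Erg*-deficient pre-proB libraries, lower in the libraries labelled as deleted (log2 fold change -4.23, edgeR adjusted p = 0.0250). Although the groups did not overlap, that call was lost with limma-voom, with robust estimation and without either *Erg*-deficient replicate, where the edgeR or limma adjusted p reached up to 0.363. The sorted populations differed in more than stage. The 8 listed plasmacytoid dendritic cell genes summed to between 14191 and 17015 CPM in the 4 pre-proB libraries of both genotypes and to between 630 and 974 CPM in proB and preB libraries, and *Siglech*, a defining gene of that cell type, was at 3856 and 3825 CPM in *Ergfl/fl* pre-proB against at most 56.5 CPM in proB and preB. The T cell list (31.8 to 103 CPM in proB and preB, 679 to 1503 in pre-proB), the NK cell list (6.20 to 15.6 against 221 to 430) and the myeloid list (64.2 to 382 against 838 to 1097) were also higher in pre-proB. The T cell sum was carried mainly by *Cd4* (474 to 1214 CPM in pre-proB) and *Cd8a* (112 to 185). *Cd3e*, *Cd3g*, *Trac* and *Bcl11b* were at most 8.51 CPM there, and *Lck* was highest in proB, at 74.4 and 78.4 CPM. Highest of the NK cell genes in pre-proB was *Klrd1*, at 164 to 220 CPM. The myeloid sum was carried mainly by *Ly6c2* (624 to 965 CPM in pre-proB and at most 18.6 in the other libraries), whereas *S100a8* and *S100a9* were highest in proB replicate 2, at 102 and 142 CPM. No gene of these lists was at 0 in any library except *Bcl11b* in preB replicate 2. The listed B-lineage genes, of which 3 were picked here after their values were seen, did not move together. *Cd79a*, which encodes a signalling subunit of the B cell receptor, was at 169 and 60.0 CPM in the *Ergfl/fl* pre-proB libraries, at 784 or more in every proB and preB library and at 2.56 and 4.39 in the *Erg*-deficient ones. *Flt3*, a receptor of early lymphoid progenitors, was at 502 and 580 CPM in *Ergfl/fl* and 565 and 602 in *Erg*-deficient pre-proB libraries and at most 27.6 in proB and preB. *Il7r*, a subunit of the interleukin-7 receptor, was at 414 and 416 CPM in *Ergfl/fl* and at 436 and 472 in *Erg*-deficient pre-proB libraries. Every comparison with pre-proB below therefore sets populations side by side that also differ in these markers, and their part in the results was not tested. In bulk RNA, fewer cells of a type and less RNA per cell cannot be told apart.

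The 10 genes spanned a wide range of levels. In FPKM, *Ldha* (127 ± 7.44, SD, n = 2) and *Pkm* (126 ± 0.651, SD, n = 2) were highest in *Ergfl/fl* pre-proB cells and overlapped, followed by *Aldoa* (68.3 ± 3.26) and *Eno1* (65.4 ± 3.30), which also overlapped, then by *Pgk1*, *Tpi1*, *Pgam1* and *Pfkl*. Lowest of the 10 were *Slc2a1* at 3.88 ± 0.325 and *Hk2* at 2.56 ± 0.326 FPKM. In proB cells *Ldha* stood apart at 320 ± 23.1 FPKM, above *Pkm* at 234 ± 14.3, *Eno1* at 154 ± 4.69 and *Tpi1* at 128 ± 8.24 FPKM, and *Slc2a1* and *Hk2* overlapped at the low end. In preB cells *Pkm* (114 ± 7.77 FPKM) and *Ldha* (104 ± 8.70 FPKM) overlapped again at the top, and *Hk2* was lowest at 1.23 ± 0.00949 FPKM. *Tpi1* thus moved from the sixth to the fourth place between pre-proB and proB cells, and *Aldoa* from the third to the sixth. The sum of the 10 genes was 1062 and 1089 CPM in *Ergfl/fl* pre-proB cells, 2155 and 2341 in proB cells, 999 and 1128 in preB and 1017 and 1090 CPM in *Erg*-deficient pre-proB libraries. Both proB libraries lay above all 6 others, which overlapped between groups.

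**Figure D1:**
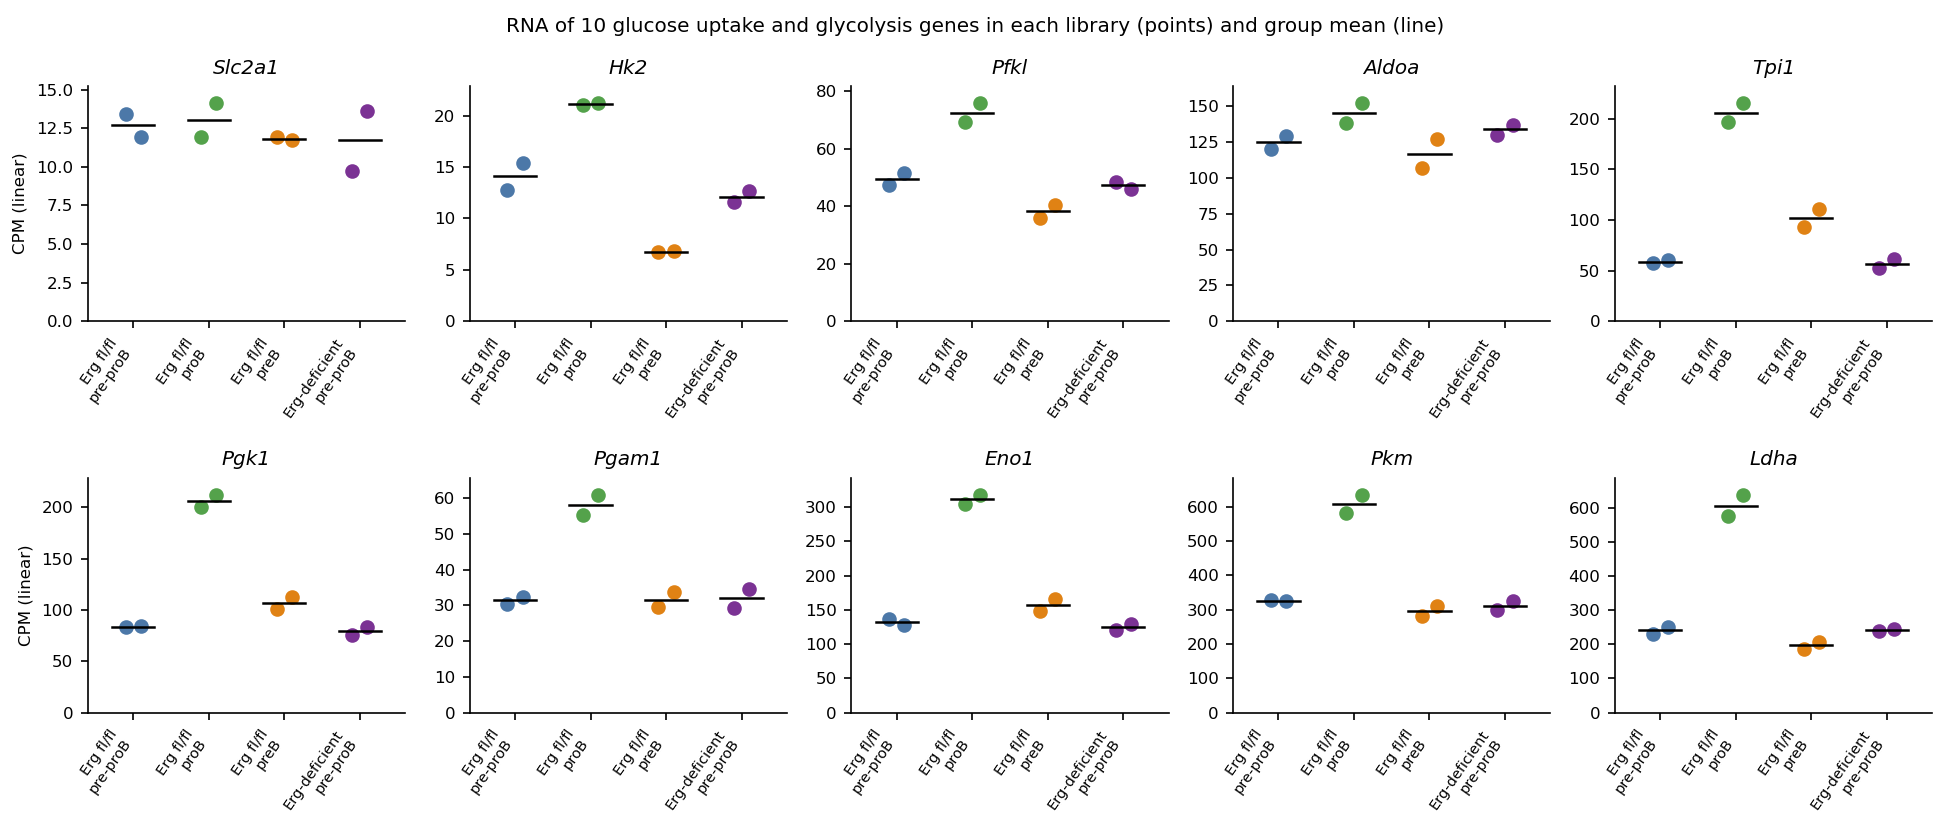
CPM (linear axis from 0) of the 10 glucose uptake and glycolysis genes in each of the 8 libraries, with 1 point per library and a line at the mean of the 2 libraries of a group. For *Ldha* the proB libraries lie at 575 and 637 CPM and all others between 185 and 251, whereas *Slc2a1* lies between 9.75 and 14.1 CPM in every library.

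The comparison of proB with pre-proB cells asks how the pathway changes as cells commit to the B lineage. All of the genes but *Slc2a1* had higher RNA in proB cells (9 of 10 called higher and 0 lower at an adjusted p below 0.05 in edgeR's quasi-likelihood test, where 36.2% of the 13650 genes tested were called higher and 36.8% lower). The median log2 fold change was 0.93 over the 10 genes and 0.00 over all genes tested. Of the upper steps, *Slc2a1* (Entrez Gene 20525, chromosome 4, 119108745 to 119137330), which encodes the transporter Glut1, was at 13.4 and 11.9 CPM in pre-proB and 11.9 and 14.1 in proB libraries. The groups overlapped, and the log2 fold change was 0.07 with a 95% interval from -0.23 to 0.38 (edgeR adjusted p = 0.628). *Hk2* (15277, chromosome 6, 82725025 to 82774454), a hexokinase that binds mitochondria, was at 12.8 and 15.4 CPM in pre-proB cells and at 21.0 and 21.2 in proB. Both proB libraries were higher, with a log2 fold change of 0.61 (SE 0.121, edgeR adjusted p = 0.00169). *Pfkl* (18641, chromosome 10, 77986947 to 78009807), the liver-type phosphofructokinase of the committed step, rose from 47.5 and 51.7 to 69.3 and 75.8 CPM, by 0.58 on the log2 scale (SE 0.0860, edgeR adjusted p = 0.000293). *Aldoa* (11674, chromosome 7, 126795234 to 126800994), the main aldolase of most tissues, was at 120 and 129 CPM in pre-proB cells and 138 and 152 in proB. Its log2 fold change of 0.25 (SE 0.0943) was the smallest of those called, with an edgeR adjusted p of 0.0381 that was not past the threshold without pre-proB replicate 1 (0.15), pre-proB replicate 2 (0.27) or proB replicate 2 (0.15).

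The steps downstream of aldolase had larger fold changes. *Tpi1* (21991, chromosome 6, 124810586 to 124814158), which interconverts the triose phosphates, was at 57.1 and 60.6 CPM in pre-proB cells and 197 and 215 in proB. This was a 3.58-fold difference, a log2 fold change of 1.84 (SE 0.0962, edgeR adjusted p = 4.32e-07). *Pgk1* (18655, chromosome X, 106187100 to 106203699), which makes ATP from bisphosphoglycerate, was at 83.4 and 83.9 CPM in pre-proB cells and 200 and 212 in proB, with a log2 fold change of 1.33 (SE 0.0736, edgeR adjusted p = 6.00e-07). *Pgam1* (18648, chromosome 19, 41911871 to 41918665), a phosphoglycerate mutase, rose from 30.5 and 32.3 to 55.3 and 60.9 CPM, by 0.92 on the log2 scale (SE 0.0928, edgeR adjusted p = 2.56e-05). In each of these genes both proB libraries lay above both pre-proB libraries. *Eno1* (13806, chromosome 4, 150236708 to 150248879), the enolase of most tissues, was at 137 and 128 CPM in pre-proB cells and 305 and 318 in proB, a log2 fold change of 1.27 (SE 0.0768). *Pkm* (18746, chromosome 9, 59656576 to 59679372), whose 2 splice forms M1 and M2 gene counts cannot tell apart, was at 328 and 326 CPM and then at 583 and 635, a log2 fold change of 0.93 (SE 0.0792). *Ldha* (16828, chromosome 7, 46842274 to 46855627), the lactate dehydrogenase subunit that favours lactate, was at 231 and 251 CPM and then at 575 and 637, a log2 fold change of 1.36 (SE 0.0911). The edgeR adjusted p of these last 3 genes lay between 1.04e-06 and 8.61e-06. Some of these genes have processed copies elsewhere in the genome: 67.0% of the 100-base windows of *Pgk1* transcripts, 59.0% of those of *Eno1* and 39.7% of those of *Pgam1* also occur in another annotated transcript, against at most 11.6% for the other 7, and how reads that fit several genes were counted is not given in the sources used here. The listed copies that the table holds, *Eno1b*, *Aldoart1* and *Aldoart2*, had at most 3 counts in any library, so adding them to their gene could test nothing about shared reads.

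**Figure D2:**
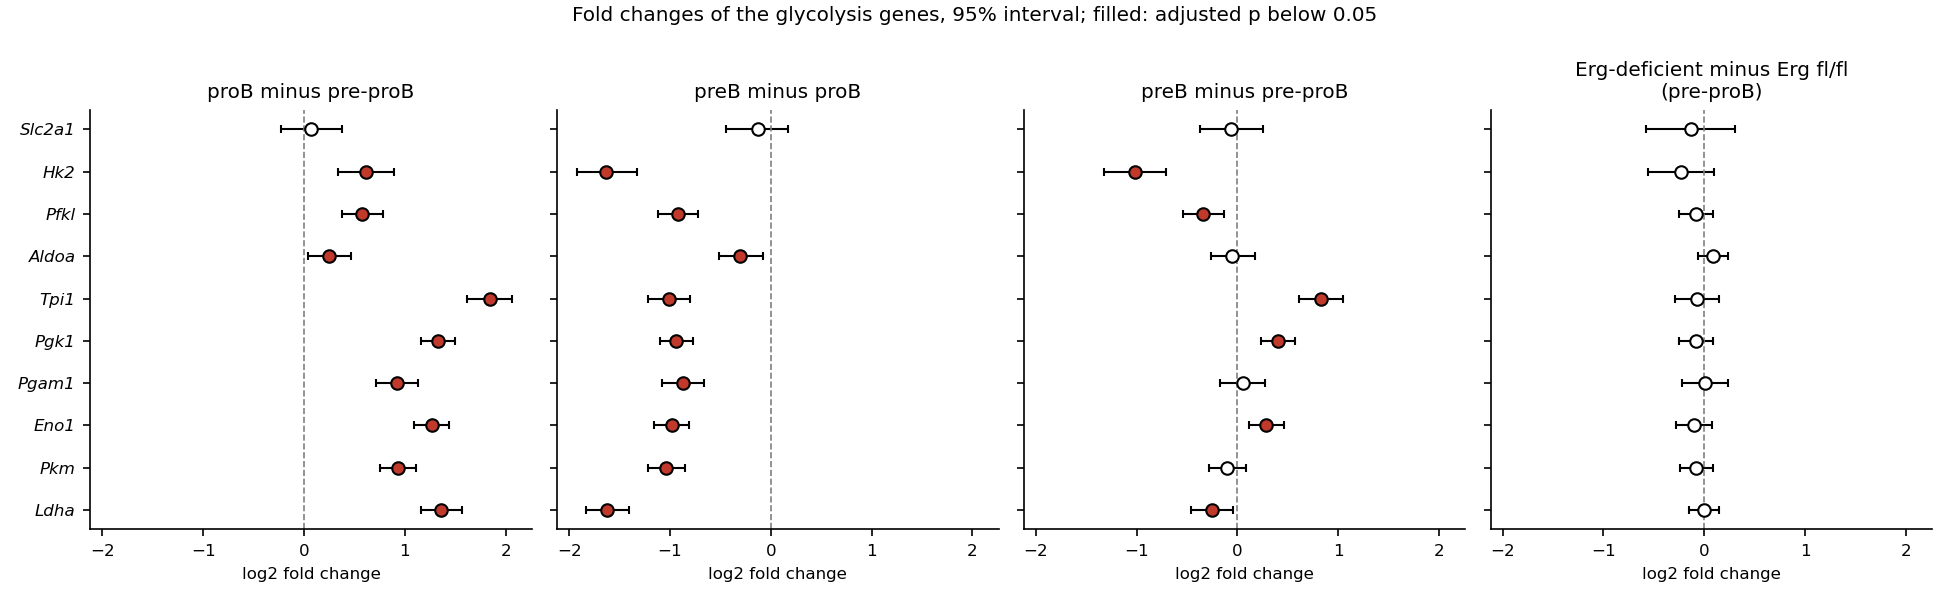
Log2 fold change (point) and 95% interval (bar) of the 10 genes in the 4 comparisons, from the 6-library fit for the stages and the 4-library fit for the genotypes, with filled points for an edgeR adjusted p below 0.05. Between pre-proB and proB cells 9 points lie at or above 0.25, between proB and preB cells 9 lie at or below -0.30, and between the genotypes all 10 lie between -0.23 and 0.09.

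From proB to preB cells all but *Slc2a1* fell, and none rose (0 of 10 called higher and 9 lower, where 29.0% of the 13650 genes tested were called higher and 29.9% lower by edgeR). The median log2 fold change was -0.96 over the 10 genes and 0.00 over all genes. The 4 comparisons share libraries (here the proB libraries with the one above), so their results are not independent. *Hk2* fell to 6.74 and 6.82 CPM, a 3.09-fold difference (log2 fold change -1.63, SE 0.129, edgeR adjusted p = 2.07e-05). *Ldha* fell to 185 and 208 CPM, a 3.07-fold difference (log2 fold change -1.62, SE 0.0918, edgeR adjusted p = 5.38e-06). In both genes the preB libraries lay below every other library, pre-proB included. *Tpi1* fell to 93.0 and 111 CPM (log2 fold change -1.01), *Pgk1* to 101 and 113 (-0.94), *Eno1* to 148 and 166 (-0.98) and *Pkm* to 281 and 310 (-1.04), each with an edgeR adjusted p between 1.81e-05 and 4.28e-05. *Pfkl* fell to 35.9 and 40.5 CPM (log2 fold change -0.92, edgeR adjusted p = 5.19e-05) and *Pgam1* to 29.5 and 33.8 (-0.87, edgeR adjusted p = 9.16e-05). For 8 of the genes the fall was thus between 1.83-fold and 3.09-fold. *Aldoa* was again the smallest change called, at 107 and 127 CPM in preB (log2 fold change -0.30, SE 0.0942, edgeR adjusted p = 0.0240), and was not called without proB replicate 2 (-0.24) or preB replicate 1 (-0.17). *Slc2a1* was at 11.9 and 11.7 CPM in preB, with a log2 fold change of -0.13 and a 95% interval from -0.44 to 0.17. Fitted on the proB and preB libraries alone, an alternative chosen after seeing the data, the same comparison called 9 of the 10 genes lower and 0 higher. Of the 12958 genes tested in that fit, 4258 were called lower and 4060 higher.

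When preB cells were set directly against pre-proB cells, 3 of the 10 genes were called higher and 3 lower. These shares lay near those over all genes, of which edgeR called 36.5% higher and 34.1% lower, and the median log2 fold change was -0.05 against 0.04 over all genes. Higher in preB were 3 enzymes downstream of aldolase, *Tpi1* (log2 fold change 0.83, SE 0.0967, edgeR adjusted p = 7.08e-05), *Pgk1* (0.40, SE 0.0742, edgeR adjusted p = 0.00128) and *Eno1* (0.28, SE 0.0768, edgeR adjusted p = 0.00973). Lower were *Hk2* (-1.02, SE 0.133, edgeR adjusted p = 0.000147), *Pfkl* (-0.34, SE 0.0894, edgeR adjusted p = 0.00881) and *Ldha* (-0.25, SE 0.0907, edgeR adjusted p = 0.0336). *Slc2a1* (-0.06), *Aldoa* (-0.05), *Pgam1* (0.05) and *Pkm* (-0.10) did not pass, with 95% intervals that together spanned -0.37 to 0.27. The smaller of these calls rested on single libraries: *Eno1* was not called without pre-proB replicate 2 (0.20) or preB replicate 2 (0.17), *Ldha* without pre-proB replicate 2 (-0.23) or preB replicate 1 (-0.16), and *Pfkl* without preB replicate 1 (-0.24).

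The comparison of *Erg*-deficient with *Ergfl/fl* pre-proB cells asks whether loss of *Erg* at the stage where development stops alters the pathway. None of the 10 genes was called (0 of 10 in either direction, where edgeR called 1.16% of the 13005 genes tested), none had an unadjusted p below 0.05, and none was called by DESeq2, limma-voom or any other of the 17 alternatives. Of the 13005 genes tested, 1624 had an unadjusted edgeR p below 0.05. The median log2 fold change was -0.08, against 0.01 over all genes. *Hk2* showed the largest difference, at 11.6 and 12.7 CPM in *Erg*-deficient against 12.8 and 15.4 in *Ergfl/fl* libraries, so that the groups lay apart but close, with a log2 fold change of -0.23 and a 95% interval from -0.56 to 0.10 (edgeR adjusted p = 0.557). *Slc2a1*, at 9.75 and 13.6 CPM, had the widest interval, -0.58 to 0.31 around -0.13. *Ldha* was at 240 and 246 CPM, between the *Ergfl/fl* values, with a log2 fold change of -0.00 and an interval from -0.15 to 0.15. *Pkm* (299 and 325 CPM), *Eno1* (120 and 130), *Aldoa* (130 and 137), *Pgk1* (75.9 and 83.6), *Tpi1* (52.0 and 61.3), *Pfkl* (48.4 and 46.1) and *Pgam1* (29.4 and 34.6) had log2 fold changes between -0.10 and 0.09, and their 95% intervals together spanned -0.29 to 0.24. These intervals leave room for differences of that size in either direction, and none of them reaches the log2 fold changes of 1.27 and more by which *Tpi1*, *Pgk1*, *Eno1* and *Ldha* differed between proB and pre-proB cells. The intervals of *Pkm* (-0.24 to 0.09), *Pgam1* (-0.22 to 0.24) and *Pfkl* (-0.25 to 0.09) also stayed short of their stage differences of 0.93, 0.92 and 0.58. For *Hk2*, *Aldoa* and *Slc2a1* the room was near or above their own stage difference, taken by size without regard to sign. *Hk2* (down to -0.56) differed by 0.61 between proB and pre-proB cells, *Aldoa* (up to 0.24) by 0.25 and *Slc2a1* (down to -0.58) by 0.07. Of the B-lineage genes named above, *Cd79a* was lower in both *Erg*-deficient libraries than in either *Ergfl/fl* library and *Flt3* overlapped between the genotypes. The NK cell list summed to 294 and 430 CPM in *Erg*-deficient and to 221 and 229 in *Ergfl/fl* pre-proB libraries. Every listed NK cell gene but *Klrd1* was higher in both *Erg*-deficient libraries. The plasmacytoid dendritic and T cell sums were also higher in both, and the myeloid sums overlapped. The part of such differences in this comparison was not tested.

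The enzymes of most steps are encoded by several genes, and the members' shares of their own step changed with stage. The shares are of summed FPKM over the listed isozymes of a step. *Ldha* made up 73.9% and 74.7% of lactate dehydrogenase RNA in the libraries of *Ergfl/fl* pre-proB cells, 99.8% and 99.7% in those of proB cells and 99.9% and 99.8% in those of preB cells. The rest was *Ldhb*, the subunit that favours pyruvate, at 56.1 and 58.5 CPM in pre-proB cells, 0.929 and 1.13 in proB cells and 0.116 and 0.338 in preB (log2 fold change from pre-proB to proB -5.75, SE 0.170, edgeR adjusted p = 1.99e-08). *Slc2a1*, flat in level, made up 4.94% and 3.73% of the RNA of 3 glucose transporters in pre-proB cells, 29.9% and 29.0% in proB cells and 41.6% and 39.7% in preB. The others, *Slc2a3*, which encodes the high-affinity transporter Glut3, and *Slc2a6*, which encodes Glut6, were at 134 and 151 and at 97.0 and 120 CPM in pre-proB, and fell to 29.3 and 34.7 and to 2.51 and 3.96 CPM in proB (log2 fold changes -2.12 and -5.02, edgeR adjusted p = 2.03e-07 and 1.06e-07). The summed FPKM of these transporters was 83.2 and 98.1 in *Ergfl/fl* pre-proB cells, 12.2 and 14.9 in proB cells and 8.79 and 9.01 in preB libraries. *Pgam1* was 37.3% and 32.7% of mutase RNA in pre-proB cells, 83.9% and 88.6% in proB cells and 56.2% and 60.3% in preB, the remainder being *Pgam2*. *Eno1* was 82.4% and 81.7%, then 95.5% in both proB libraries, then 90.5% and 91.5% of the RNA of *Eno1* and *Eno3*, and *Aldoa* went from 92.8% and 91.9% to 99.3% in both proB libraries beside *Aldoc*. *Pfkl* rose from 33.2% and 34.0% of phosphofructokinase RNA to 48.7% and 49.1%, and was at 41.1% and 42.4% in preB. *Hk2* was a minority at every stage, at 11.8% and 13.6%, 21.5% and 21.7%, and 14.6% and 12.7%, with *Hk1* between 71.0% and 84.6% in all libraries. In *Erg*-deficient pre-proB libraries *Ldha* was at 72.9% and 67.6%, *Slc2a1* at 2.62% and 4.20% and *Hk2* at 11.6% and 12.0%. Mutase was uneven there, with *Pgam1* at 19.5% and 35.6% in the 2 libraries. The alternative isozymes *Ldhb*, *Slc2a3* and *Slc2a6* were high in the same pre-proB libraries that carried the high plasmacytoid dendritic, T, NK and myeloid marker sums. The part of the cells that express these markers in the shares was not tested.

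**Figure D3:**
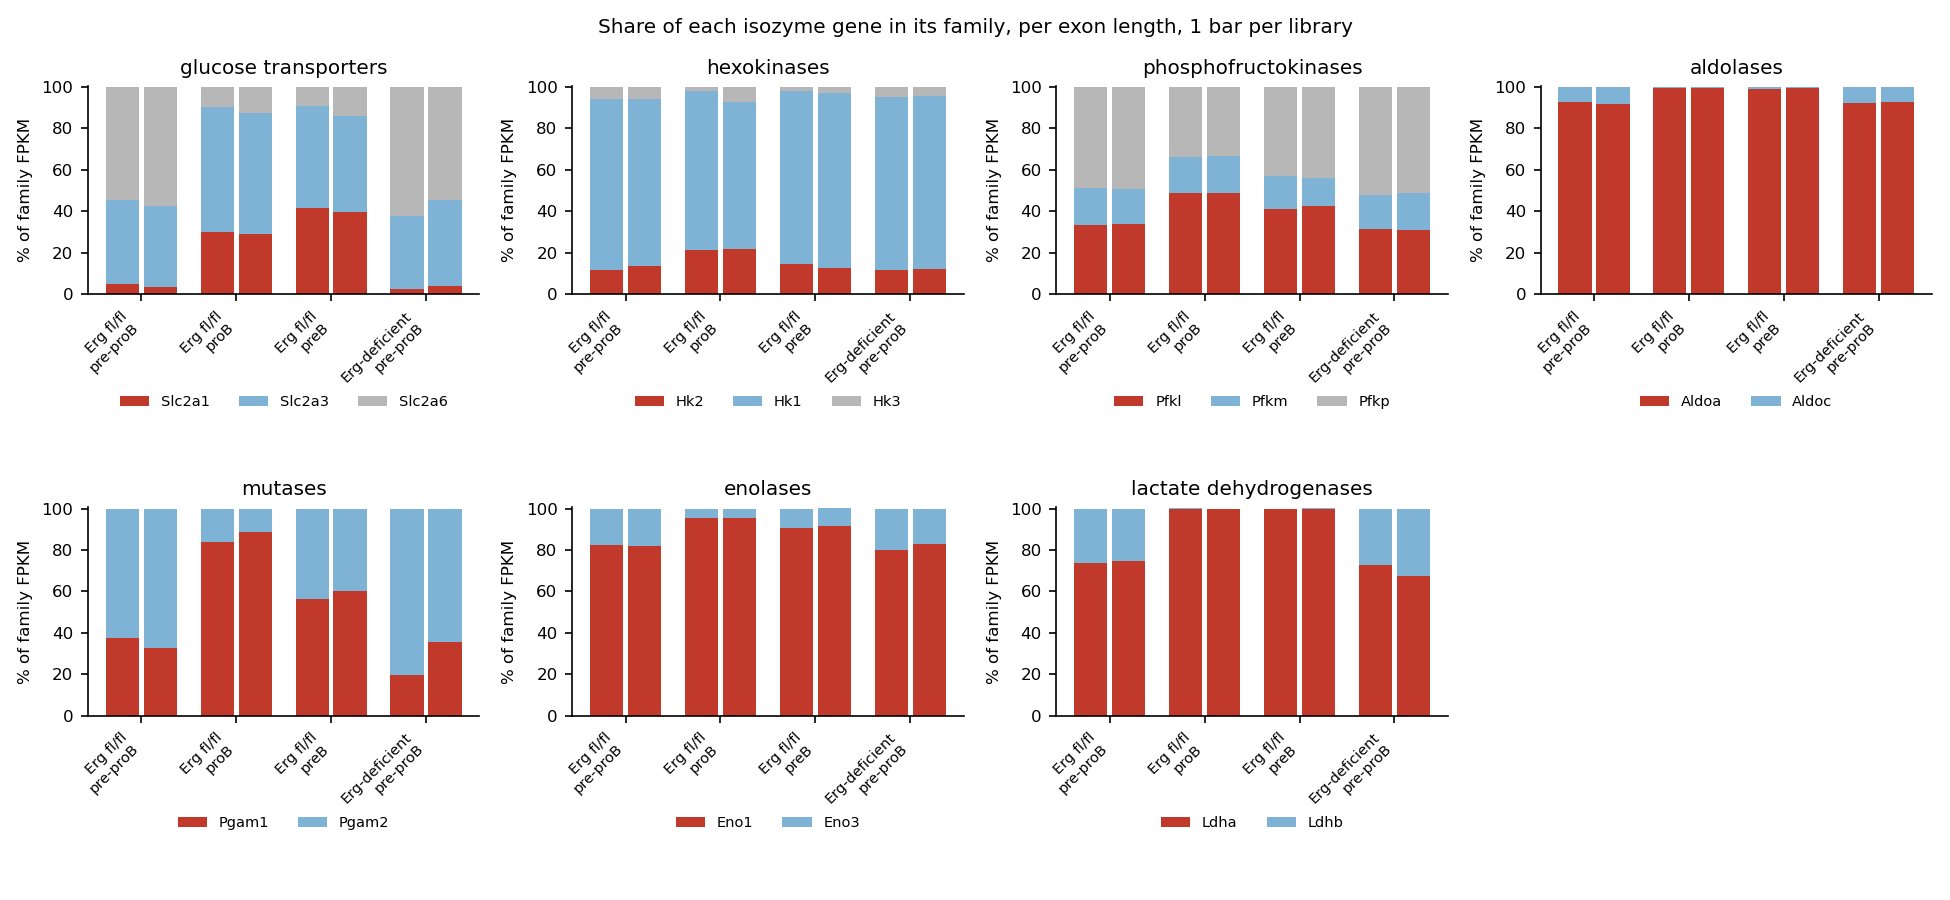
Share of each isozyme gene in the summed FPKM of its family (percent, 1 bar per library, 2 bars per group), with the member of the 10 genes in red at the base. The red share of lactate dehydrogenase goes from 73.9% and 74.7% in *Ergfl/fl* pre-proB to 99.8% and 99.7% in proB libraries, and that of the glucose transporters from 4.94% and 3.73% to 29.9% and 29.0%.

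From pre-proB to proB cells the remaining genes of the pathway did not follow the 10 as a group. At the later step, from proB to preB, more of them were called lower than higher, as in the 10. Of 22 further glycolysis genes, 16 passed the filter in the stage fit, and from pre-proB to proB cells 2 were called higher and 12 lower, with a median log2 fold change of -0.50. From proB to preB 2 were called higher and 9 lower (median -0.65), and between preB and pre-proB 1 higher and 13 lower (median -0.98). Over all genes tested the shares were 36.2% higher and 36.8% lower at the first step and 29.0% and 29.9% at the second. In preB against pre-proB they were 36.5% and 34.1%. The 2 that were higher in proB were *Gapdh* and *Slc16a1*. *Gapdh*, the step between *Tpi1* and *Pgk1*, was at 336 and 359 CPM in pre-proB cells, 830 and 878 in proB cells, 348 and 374 in preB and 352 and 364 in *Erg*-deficient libraries. It rose by 1.33 on the log2 scale (SE 0.0778, edgeR adjusted p = 8.41e-07) and fell again by 1.24 from proB to preB (edgeR adjusted p = 7.71e-06). Of the 100-base windows of *Gapdh* transcripts, 73.9% also occur in transcripts of other genes, 84 in number, so the limit given for *Pgk1*, *Eno1* and *Pgam1* holds here too. *Slc16a1*, which encodes the lactate and pyruvate transporter Mct1, was at 26.8 and 15.1 CPM in pre-proB cells, 382 and 369 in proB cells and 310 and 305 in preB (log2 fold change from pre-proB to proB 4.20, SE 0.197, edgeR adjusted p = 2.29e-07). *Gpi1*, the isomerase between *Hk2* and *Pfkl*, was at 374 and 408 CPM in pre-proB cells, 313 and 328 in proB cells and 198 and 217 in preB. Its log2 fold changes were -0.25 (edgeR adjusted p = 0.0173) and -0.62 (edgeR adjusted p = 0.000261) at the successive steps, and the first was not called without proB replicate 1 (-0.21). *Hk1*, the housekeeping hexokinase, was at 75.2 and 76.8, 62.9 and 58.3, and 32.4 and 38.2 CPM, with log2 fold changes of -0.29 (edgeR adjusted p = 0.0119) and -0.77 (edgeR adjusted p = 0.000130), and the first was not called without proB replicate 2 (-0.27). In *Erg*-deficient pre-proB cells 1 of the 16 was called, *Slc16a1*, lower at 5.19 and 5.68 CPM (log2 fold change -1.96, SE 0.289, edgeR adjusted p = 0.0380). That call was lost without *Erg*-deficient replicate 1 (-1.89) or replicate 2 (-2.02), with limma-voom (-1.88), with robust estimation (-1.96) and with edgeR's version 4 method (-1.95).

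Among 15 tested regulators of the pathway, 6 were called higher and 6 lower in proB against pre-proB cells (median log2 fold change 0.06), and 5 higher and 6 lower in preB against proB (median 0.01), which was near the shares over all genes given above. *Myc*, which encodes the transcription factor, was at 20.5 and 14.4 CPM in pre-proB cells, 168 and 175 in proB cells and 20.1 and 23.6 in preB libraries. Both proB libraries were far above all others, with log2 fold changes of 3.34 (SE 0.136, edgeR adjusted p = 1.08e-07) and then -2.97 (SE 0.131, edgeR adjusted p = 2.81e-06). *Hif1a*, the oxygen-regulated subunit of HIF-1 whose activity is set mainly at the protein level, was at 187 and 196, 132 and 124, and 131 and 139 CPM, lower in proB by 0.54 on the log2 scale (edgeR adjusted p = 7.64e-05) and without a call from proB to preB (0.08, edgeR adjusted p = 0.307). *Pfkfb3*, whose product makes the activator of phosphofructokinase, rose from 54.4 and 40.8 to 167 and 155 CPM (1.80, edgeR adjusted p = 1.31e-06), and *Pfkfb4* fell from 30.2 and 33.1 to 5.95 and 5.86 CPM (-2.39, edgeR adjusted p = 3.15e-07). *Txnip*, an inhibitor of glucose uptake, ran opposite to the 10 genes, at 533 and 492 CPM in pre-proB cells, 186 and 179 in proB cells and 461 and 562 in preB (log2 fold changes -1.46 and 1.50, edgeR adjusted p = 2.44e-06 and 1.06e-05). *Pdk1*, which inhibits pyruvate dehydrogenase, fell from 72.8 and 78.6 CPM in proB to 24.6 and 29.4 in preB (-1.48, edgeR adjusted p = 3.22e-05). In *Erg*-deficient pre-proB cells *Myc* was the only regulator called, at 6.25 and 5.81 CPM (-1.55, SE 0.208, edgeR adjusted p = 0.0293), and was lost without *Erg*-deficient replicate 1 (-1.60) or replicate 2 (-1.50) and with limma-voom (-1.51).

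For neighbouring routes, lists this short are read only as counts beside the shares over all genes (36.2% higher and 36.8% lower in proB against pre-proB, 29.0% and 29.9% in preB against proB). Of 10 genes of pyruvate entry into mitochondria, 5 were called higher and 2 lower in proB against pre-proB (median 0.14), and 2 higher and 4 lower in preB against proB (median -0.14), with *Pdha1*, a catalytic subunit of pyruvate dehydrogenase, at a log2 fold change of 0.76 (edgeR adjusted p = 4.56e-06) in the first. Of 10 pentose phosphate genes, 5 were higher and 4 lower (median 0.15) and then 3 higher and 3 lower (median -0.05). *Prps1*, which makes the activated ribose for nucleotides, rose by 1.49 (edgeR adjusted p = 1.87e-07), and *Tkt*, which encodes transketolase, fell by 1.19 from proB to preB (edgeR adjusted p = 1.13e-05). Of 13 other HIF target genes tested, 4 were higher and 4 lower in proB against pre-proB (median -0.05) and 5 higher and 5 lower in preB against proB (median 0.21). *Vegfa*, the vascular growth factor, was the HIF target with the lowest p at both steps, with log2 fold changes of 2.51 (edgeR adjusted p = 6.45e-07) and -1.81 (edgeR adjusted p = 1.47e-05). None of these 3 lists had a call in *Erg*-deficient pre-proB cells.

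Proliferation genes moved with stage as well. All 15 were called higher in proB than in pre-proB (median log2 fold change 2.14) and lower in preB than in proB (median -0.51), and their summed level was 1825 and 2018 CPM in *Ergfl/fl* pre-proB cells, 8496 and 8254 in proB cells, 6085 and 5203 in preB and 1805 and 1835 in *Erg*-deficient pre-proB libraries. In preB against pre-proB all 15 were still higher (median 1.50), whereas the 10 glycolysis genes had a median of -0.05 there. Over all genes tested, edgeR called 36.2% higher in proB than in pre-proB and 29.9% lower in preB than in proB. In preB against pre-proB it called 36.5% higher. The part of cell division in the levels of the 10 genes was not tested.

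**Figure D4:**
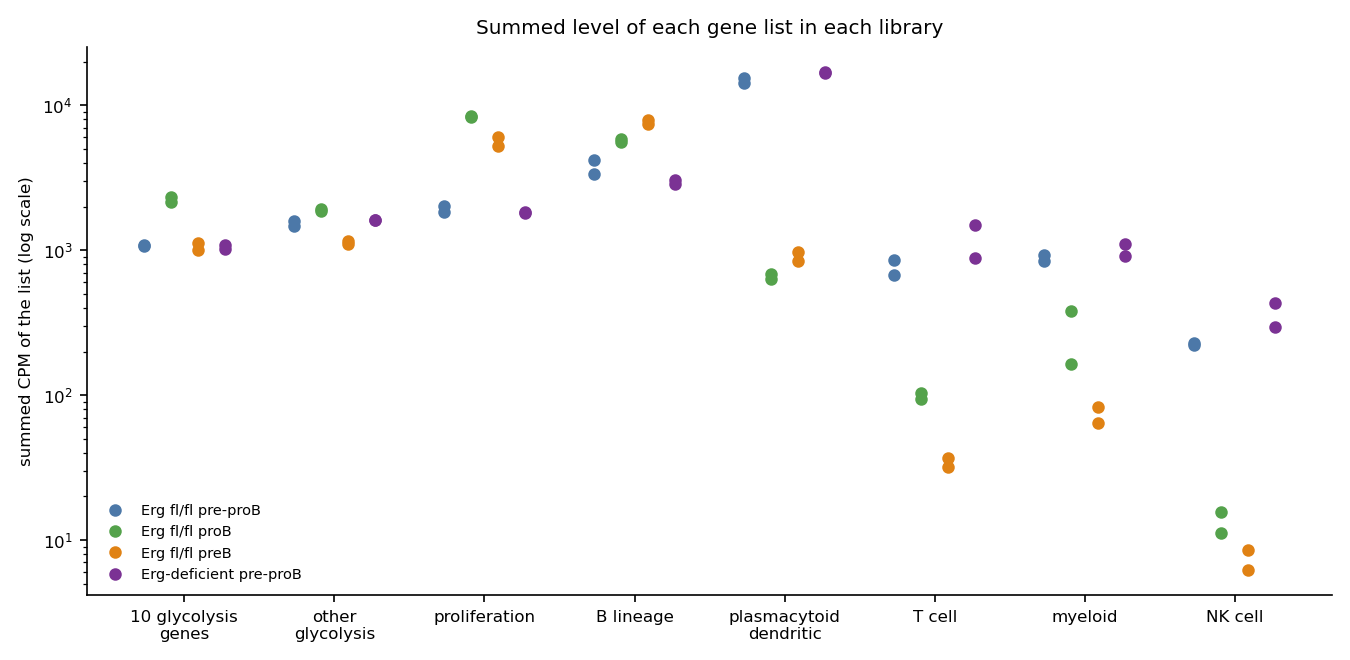
Summed CPM (log axis) of each gene list in each of the 8 libraries, coloured by group. The 10 glycolysis genes sum to 2155 and 2341 CPM in proB and to between 999 and 1128 in all other libraries, proliferation genes stay at 5203 to 6085 CPM in preB, and the plasmacytoid dendritic list reaches 14191 to 17015 CPM in pre-proB libraries of both genotypes.

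Across the 8 libraries the 10 genes resembled each other to different degrees. Pearson's r of a gene's log2(CPM + 1) with the mean standardized profile of the other 9 was 0.99 for *Pgam1* and *Pkm*, 0.98 for *Ldha*, 0.92 for *Eno1*, 0.91 for *Pfkl*, 0.89 for *Pgk1*, 0.80 for *Tpi1*, 0.76 for *Hk2*, 0.73 for *Aldoa* and 0.38 for *Slc2a1*. *Tpi1* and *Pgk1* (r = 0.99) as well as *Pgk1* and *Eno1* (r = 1.00), the genes called above the pre-proB level in preB cells, were close to each other. So were *Hk2* and *Pfkl* (r = 0.94), which were called below it, while *Hk2* and *Tpi1* were at 0.40. *Ldha*, also called below it, did not keep to that side. Its r was 0.86 with *Hk2* and 0.96 with *Pfkl*, and 0.91 with *Eno1* and 0.88 with *Pgk1*. These values describe 8 libraries in 4 groups that share library scaling, and carry no test. The grouping by calls came from libraries that also enter r, so likeness within a group was partly fixed by it. Of 10219 other genes with a mean of at least 5 CPM, the 5 most like the mean profile were *Npm3* (r = 0.994), *Coq4* (0.994), *Chchd4* (0.992), *Eif3d* (0.992) and *Apex1* (0.991). *Npm3*, which encodes a nucleolar chaperone, was at 38.4 and 40.4 CPM in pre-proB cells, 76.7 and 84.7 in proB cells, 34.7 and 38.1 in preB and 37.0 and 41.5 in *Erg*-deficient libraries. *Gapdh* had an r of 0.97 (rank 68), *Myc* of 0.88 (rank 682) and *Hif1a* of -0.53 with the same profile.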

How the data were processed

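RNA of 8 libraries of sorted bone marrow cells was sequenced in pairs. After adapter removal (Trim Galore), STAR alignment to mm10 and counting per gene (featureCounts, with the Entrez Gene annotation built into Rsubread), the authors deposited raw counts without normalization. Per the submitters' processing notes CASAVA 1.8.2 was also used. Not given in the sources used here are the STAR version and how strand and multi-mapping reads were treated.

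Symbols came from RefSeq GRCm38.p6 for 25275 of 27179 identifiers and from GENCODE vM21 for 18. CPM used TMM factors over the 8 libraries (0.952 to 1.05). FPKM divide CPM by the union of exons of GENCODE transcripts matched to RefSeq, per 1000 bases. Groups came from the labels. Tests used edgeR 4.0.16 in R 4.3.3 (glmQLFit with the legacy method, glmQLFTest) on genes that reached 0.5 CPM in 2 libraries or more, with 1 fit of the 6 *Ergfl/fl* libraries for the stages and 1 of the 4 pre-proB libraries for the genotypes, and Benjamini-Hochberg adjustment over all genes kept. Genes were called at an adjusted p below 0.05. To obtain the SE, the log2 fold change was divided by √F. As mice are not matched to libraries, p-values measure the spread between these libraries, and with 2 against 2 they rest on the spread shared across genes. The procedure was tested on simulated data with known changes. The depth of 15565381 counts or more puts 3 counts at no more than 0.194 CPM.

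The 10 genes, the other lists and the naming rule were chosen with earlier results of these data known. Every one of the 10 was named with all its values. Of each other list at most the 4 called genes with the lowest p per comparison were named, besides *Gapdh*, *Gpi1*, *Hk1*, *Myc*, *Hif1a* and the isozymes of the 10 genes, whose shares were added with values seen. The alternatives were scaling by DESeq2's size factors or by total counts, no filter, 1 CPM or filterByExpr, the DESeq2 1.42.0 test, limma-voom (limma 3.58.1), edgeR's version 4 method, robust estimation, all 8 libraries in 1 fit, 495 immunoglobulin and T cell receptor genes left out, copies added to their gene, a block for the replicate number, and leaving out each library. A fit of the proB and preB libraries alone was chosen after seeing the data. Of 8 listed copies of the 10 genes, 3 are in the table and none passed the filter. The correlation of same-numbered deviations was 0.169, 0.0305 and 0.0908 among the stages and 0.00593 between genotypes. Such values cannot exclude that stage libraries of the same number came from the same mouse. Figures were drawn with matplotlib 3.10.9.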

Additional observations from a re-analysis of the deposited data

How the results depend on the processing

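Of the 10 genes, 9 were called higher in proB than in pre-proB (36.2% of all genes tested) and 9 lower in preB than in proB (29.9%). In preB against pre-proB 6 were called either way (36.5% of all genes higher and 34.1% lower), and 0 in *Erg*-deficient pre-proB cells (1.16% either way). Leaving out 1 library gave 8 to 9, 8 to 9, 4 to 6 and 0 to 0. The replicate number as a block changed no call of the 10 genes in any comparison. Whether stage libraries of the same number share a mouse is not given in the sources used here. The block raised the genes called between genotypes from 151 to 265.

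That count depended on the setting, and the cause was not tested. It was 279 without a filter, 400 with DESeq2, 41 with limma-voom, 88 with edgeR's version 4 method, 442 with all 8 libraries in 1 fit and between 10 and 401 with 1 library left out: 10 without *Erg*-deficient replicate 2, 16 without *Erg*-deficient replicate 1 and 401 without *Ergfl/fl* pre-proB replicate 2. In these fits the variance of the group with 1 remaining library is taken from the others. The counts called in the stage comparisons stayed within 1.5 times of 9961, 8035 and 9649 under every alternative.

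*Aldoa* in proB against pre-proB was also not called by DESeq2 (0.24, adjusted p = 0.0601) or with all 8 libraries in 1 fit (0.22). Direction turned only for genes without a call, each on the log2 scale. With 1 library left out, *Slc2a1* ranged from -0.09 to 0.21 in proB against pre-proB, *Hif1a* from -0.01 to 0.13 in preB against proB, and *Aldoa* from -0.21 to 0.09, *Gapdh* from -0.02 to 0.16 and *Pgam1* from -0.08 to 0.16 in preB against pre-proB, where *Pgam1* was also at -0.00 without a filter. Between genotypes the ranges were -0.39 to 0.09 for *Slc2a1*, -0.19 to 0.05 for *Tpi1*, -0.05 to 0.04 for *Ldha*, -0.01 to 0.06 for *Gapdh*, -0.03 to 0.07 for *Gpi1* and -0.11 to 0.13 for *Pgam1*. With total counts *Pgam1* was at -0.02, *Gapdh* at -0.01 and *Gpi1* at -0.02, and *Ldha* was at 0.00 without a filter and 0.01 with all 8 libraries.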
